A study of Drosophila melanogaster with 2 samples.

Results

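The genes described here encode the proteins of the large subunit of the cytoplasmic ribosome of Drosophila melanogaster. They were chosen by symbol, as protein-coding genes named RpL with a number and optional letters, together with RpLP0, RpLP1 and RpLP2. The rule gave 50 of the 13945 protein-coding genes annotated on the assembled chromosome arms, with 12 on 2L, 12 on 2R, 10 on 3L, 10 on 3R, 6 on X and none on chromosome 4. The copies RpL37-1 and RpL37-2 were counted as members, and the paralogs named "-like" were kept apart. Binding of sisA was measured by ChIP-seq, the sequencing of DNA recovered with a protein by immunoprecipitation, in whole embryos aged 0 to 18 h of a transgenic strain that expresses a sisA-eGFP fusion protein, with an antibody against GFP. There were 2 biological replicates of 1 group, in which every animal carried the tagged protein, so no comparison between treatments or genotypes exists and no test was made. Sex was not recorded, and whether the embryos of each replicate had separate parents is not stated, so the spread between replicates may be technical. The deposited peaks are placed on genome build dm6. The read number behind them is unknown, and no control library was used here.

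The large subunit joins amino acids in its peptidyl transferase centre, and the growing chain leaves through an exit tunnel lined with RNA and a few proteins. A flexible stalk of acidic proteins recruits the translation factors that drive each step. Its genes are among the most actively transcribed in animal cells, and many of them are Minute loci in flies, where loss of one copy slows development and makes cells lose in competition with neighbours. Fly genes of this family usually start transcription at a pyrimidine-rich initiator with the letters CTTT, called the TCT initiator, instead of the common initiator with TCAGT. The sisA protein is a basic leucine zipper (bZIP) factor encoded on the X, known as one of the signals by which the dose of X chromosomes sets sex in the early embryo.

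The authors gave a thresholded peak list for each replicate, a conservative and a longer one from both, and for each source a ranked list of all peaks before thresholding. A gene is called occupied below when the summit of a peak in the conservative list lay within 1000 bp of any of its annotated transcription start sites (TSSs). Of the 50 genes 25 were occupied. Their strongest peaks were at RpL32, RpL34b, RpL23A, RpL7, RpL41, RpL26 and RpL14. The sequence of dm6 around these summits is shown to display the DNA at the strongest sites, except for RpL41. Each window reaches 40 bp to either side of the summit on the strand of the gene, shortened at RpL7 to the 25 bases around its E-box. Capitals mark matches to the motifs searched, which were TATAAA at RpL26, where matches on both strands overlap, and the E-box CACGTG at RpL7.
RpL32 (chr3R:30046297-30046377, minus strand): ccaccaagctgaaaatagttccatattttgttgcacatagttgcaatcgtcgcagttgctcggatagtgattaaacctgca
RpL34b (chr3R:9401272-9401352, minus strand): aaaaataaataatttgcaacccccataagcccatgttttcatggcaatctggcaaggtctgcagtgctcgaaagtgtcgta
RpL23A (chr3L:1668706-1668786, minus strand): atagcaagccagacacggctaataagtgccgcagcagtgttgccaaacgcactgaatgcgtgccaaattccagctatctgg
RpL7 (chr2L:10201010-10201034, plus strand): gcgcgcgtgtCACGTGtgcacgcat
RpL26 (chr3L:18898912-18898992, plus strand): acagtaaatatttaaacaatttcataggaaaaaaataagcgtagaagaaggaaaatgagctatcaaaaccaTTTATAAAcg
RpL14 (chr3L:8600920-8601000, plus strand): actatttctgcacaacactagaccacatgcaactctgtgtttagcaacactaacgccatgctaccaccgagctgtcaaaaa
Inside these windows RpL32, RpL34b and RpL14 held none of the 12 motifs searched around summits, a set that included 4 bZIP sites. RpL23A held TCAGT on the other strand, which is not in capitals.

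The occupied share was 50% (25 of 50), and over all protein-coding genes it was 21.1% (2940 of 13945). The genes of the small cytoplasmic subunit had a share like that of the large one, 52.6% (20 of 38), while the mitochondrial large-subunit genes stood at 25.5% (12 of 47). In the authors' longer list from both replicates 30 of the 50 genes (60%) had a summit within the same distance, beside 22.3% of all genes. The 5 genes gained were RpL4, RpL6, RpL11, RpL27 and RpL37-1, and none was lost. In the list of replicate 1 alone the count was 28 (56%; all genes 20.6%). Replicate 2 alone gave 16 (32%; all genes 16.1%), so the count depended on replicate 1. All 16 were also found in the conservative list. Both single-replicate lists held the same 16 genes (32%; all genes 15.1%). The 9 occupied genes without a peak in the list of replicate 2 were RpL7A, RpL8, RpL13, RpL18, RpL19, RpL22, RpL27A, RpL34a and RpL36, and each of them had an unthresholded peak there. RpL13 was also missing from the list of replicate 1. The embryos were used whole, so strong binding in a few cells and weak binding in many cannot be told apart.

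Most of these peaks were of middling signal for the list. The signal of their peaks, the authors' own peak caller value, ran from 73.5 to 657 with a median of 132 (interquartile range 107 to 208), and 13 of the 25 lay above the median of the whole conservative list, 128. Over all 2940 occupied genes the median signal was 172 and 65.3% lay above the list's median. As a percentile within the list, the median was 52.3 for the large-subunit genes and 64.8 for all occupied genes. The small-subunit genes had a median signal of 134, and the mitochondrial large-subunit genes 264.

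**Figure D1:**
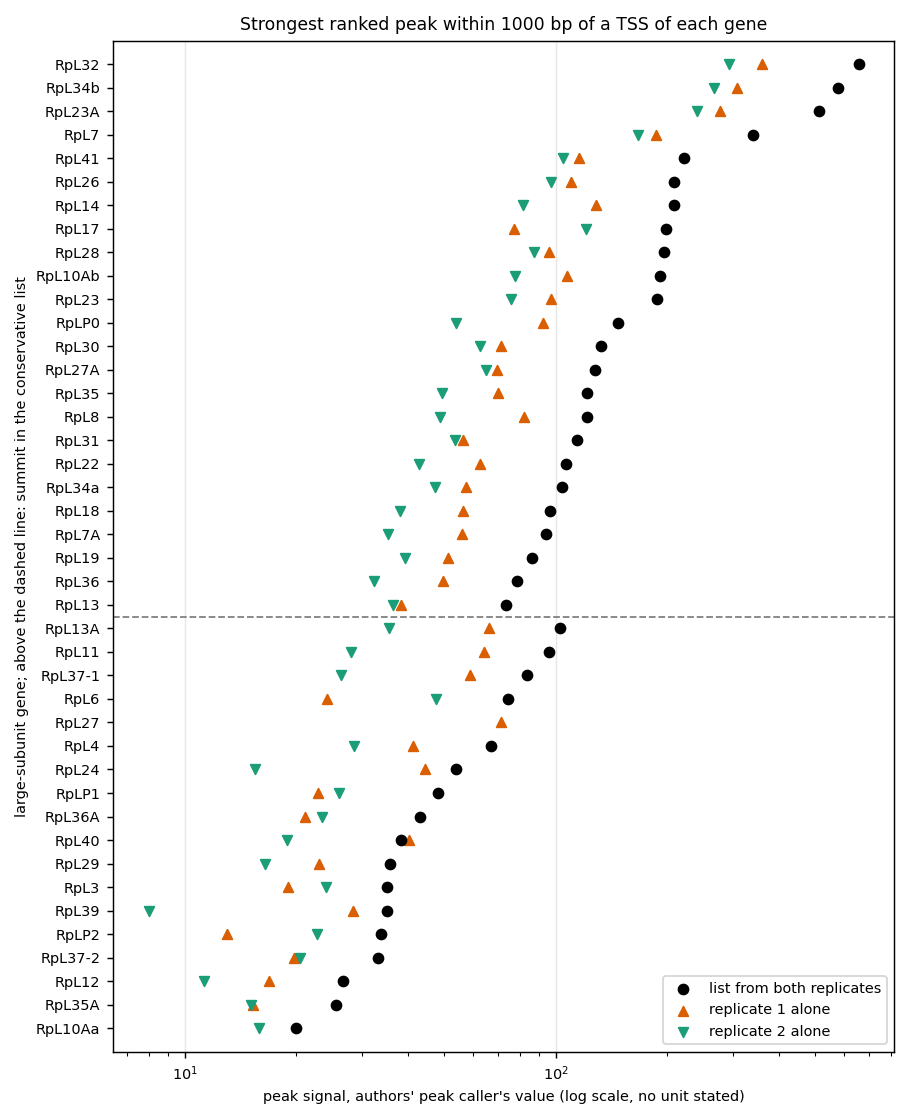
Authors' peak signal (log axis, no unit stated) of the strongest ranked peak within 1000 bp of a TSS at 42 of the large-subunit genes that have one, from both replicates together (circles) and from each replicate alone (triangles), which may be different peaks below the dashed line, with 24 of the occupied genes above it. Above the line RpL32, RpL34b and RpL23A stand beyond 500, RpL7 follows at 340 and the other 20 lie between 73.5 and 222; replicate 1 is the higher of the replicates at each gene shown there but RpL17.

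RpL32, long used as a reference gene in fly expression work under the name rp49, had the strongest peak (FBgn0002626; peak at 3R from 30046150 to 30046496). Its signal was 657 in the conservative list, 360 in replicate 1 and 293 in replicate 2, and the summit lay 176 bp upstream of the TSS. RpL34b followed with 577, 308 and 268 (FBgn0037686; 3R from 9401159 to 9401430), with its summit 86 bp upstream, and was the only occupied member with more than 1 summit within 1000 bp, having 2. Its paralog RpL34a also had a peak, with a signal of 104 (57.3 and 47.4 in the replicates) and a summit 74 bp upstream. Both RpL34 genes therefore had a peak of their own just upstream of the start, ranked at percentiles 95.1 (RpL34b) and 37.4 (RpL34a) of the list.

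Proteins of the exit tunnel and its rim were coded by 8 of the genes, of which 6 were occupied. Counts for this and the other small groups of members below stand beside 25 of all 50 members and 21.1% of all protein-coding genes. RpL23A, the rim protein at which factors that receive the new chain dock, had 512 (replicate 1 at 277, replicate 2 at 241; FBgn0026372; 3L from 1668637 to 1668867; summit 92 bp upstream). RpL26 had 209 (110 and 97.2), with its summit 77 bp downstream of a TSS in an intron. RpL17, which lines the tunnel, had 198, with 77.0 in replicate 1 and 120 in replicate 2, and was one of 2 occupied members at which replicate 2 was the higher. RpL35, RpL31 and RpL19 had signals of 122, 114 and 86.4. RpL4 and RpL39, which also reach into the tunnel, were not occupied. In the first ranked list of the series, the source of all ranked signals below unless a replicate is named, RpL4 had a peak with a signal of 66.8 whose summit fell on a TSS, at distance 0, and RpL39 one with 35.1.

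The stalk and its base were represented by RpLP0, RpLP1, RpLP2 and RpL12, of which only RpLP0 was occupied. RpLP0 is the scaffold that anchors the stalk, and its peak reached 148 (replicate 1 at 92.6, replicate 2 at 53.8) with the summit 9 bp upstream of a TSS. RpLP1 and RpLP2, the acidic proteins that form the stalk itself, had ranked peaks with signals of 48.3 and 33.9, and RpL12, at the base, 26.8. RpLP0 therefore stood above its partners in the list that holds all 4 genes. RpL5 and RpL11, which together carry the small 5S RNA into the subunit, were both unoccupied. RpL11 had a ranked peak of 95.8 at 69 bp upstream, and RpL5 had none.

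Around the peptidyl transferase centre RpL8 was occupied and RpL3 and RpL10 were not. RpL8 had a signal of 122 (82.2 and 48.9 in the replicates), RpL3 had a ranked peak of 35.1 and RpL10 had none. At the L1 stalk, through which spent tRNA leaves, the paralogs RpL10Ab and RpL10Aa differed. RpL10Ab had a signal of 191 (107 and 77.8; summit 282 bp upstream), and RpL10Aa only a ranked peak of 19.9 with no peak in replicate 1. RpL40, made as a fusion with ubiquitin, had a ranked peak of 38.3 at 611 bp upstream. The remaining 30 genes encode proteins of the body of the subunit, and 16 of them were occupied.

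Among body proteins RpL7 had the highest after the RpL32 and RpL34b peaks, 340 (replicate 1 at 187, replicate 2 at 167). Its summit lay 18 bp downstream of its TSS, in the UTR, and 48 bp from the TSS of Ripalpha. RpL41, which encodes the smallest protein of the subunit, had 222 (116 and 105), and RpL14 had 208 (128 and 81.9). RpL28 had 196, and RpL23, a surface protein at which eIF6 binds, had 187. The others ran from 132 at RpL30 through 127 at RpL27A, 107 at RpL22, 96.3 at RpL18 and 94.0 at RpL7A down to 78.8 at RpL36 and 73.5 at RpL13. Of these, RpL30 alone lay above the median of the list. Many ribosomal protein genes carry small nucleolar RNAs (snoRNAs) in their introns. Occupied genes were found among hosts and other members alike. The median length was 1318 bp for occupied and 1413 bp for unoccupied members, and 9 of 16 hosts and 16 of 34 other members were occupied. Of the 24 members with more than 1 annotated TSS 16 were occupied, and 9 of the 26 with a single TSS. Over all protein-coding genes the occupied shares were 34.1% and 16.4%, and more TSSs give a gene more places to be counted. The count stayed at 25 when a single TSS was used for each gene.

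By chromosome arm the occupied members numbered 8 of 10 on 3L, 5 of 6 on X, 5 of 12 on 2R, 4 of 12 on 2L and 3 of 10 on 3R. Over all protein-coding genes the shares on these arms ranged only from 19.1% on 2L to 22.5% on 3L, with 22.3% on X. Chromosome 4, which holds no member, had 1 of 80 genes occupied (1.25%). The 3R members were few but included the strongest pair, RpL32 and RpL34b.

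The conservative list keeps peaks for their agreement between these replicates, so the values that follow are conditioned on that choice. Each of the 25 summits had a ranked summit within 100 bp in both replicates. Replicate 1 gave the higher signal at 23 of the 25, with medians of 77.0 and 62.6, and RpL17, at 77.0 and 120, was among the exceptions. Over all conservative summits matched in both replicates (4847 of 5133), replicate 1 was higher at 75.3%. Spearman's rho between the replicates was 0.915 across the 25 peaks and 0.872 across the 4847, as a description of peaks from the same libraries. The scaling of the signal is not stated, so a ratio of the replicates is not a difference in binding.

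The summits at large-subunit genes lay close to the TSS, as did those of small-subunit genes. The median position of the nearest summit was -75 bp, upstream of the TSS (interquartile range -176 to -20), and over all occupied genes it was -138.5 bp (-262 to -64). Summits closer than or at 100 bp were found at 17 of 25 members (68%) and at 26.4% of all occupied genes. The occupied small-subunit genes had a median position of -53 bp, with 70% within 100 bp. Within 250 bp the shares were 84% for the large-subunit genes and 65.4% for all occupied genes. The share lying upstream was 84% (21 of 25), beside 84.1% of all occupied genes. The exceptions, at or past the start, were RpL36 at 3 bp, RpL7 at 18 bp, RpL7A at 31 bp and RpL26 at 77 bp downstream. By annotation 17 of the summits were intergenic, 6 were in UTRs, 2 in introns and none in coding sequence.

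**Figure D2:**
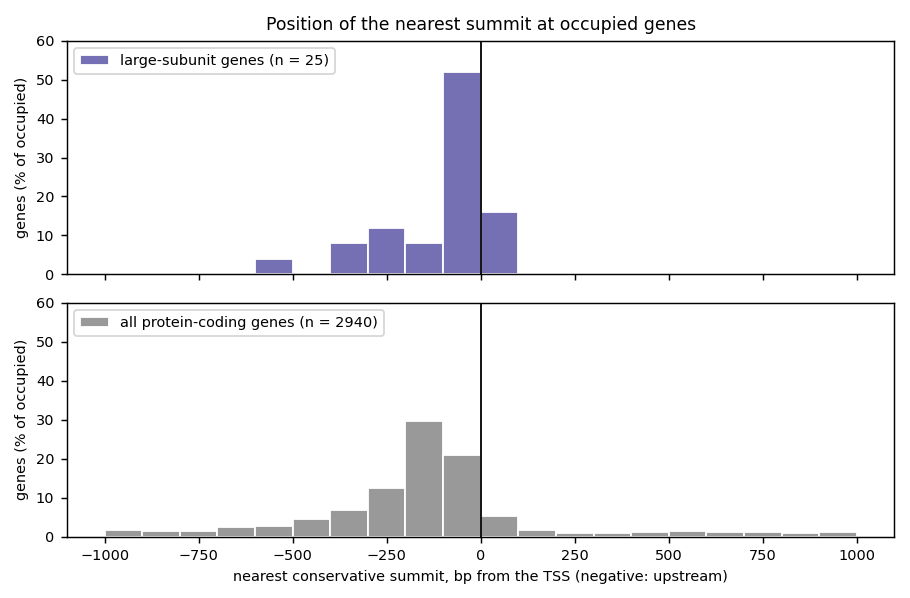
Distance in bp from the TSS (negative is upstream) of the nearest conservative summit, as the percent of genes in bins of 100 bp, for the 25 occupied large-subunit genes and all 2940 occupied protein-coding genes. The bin just upstream of the TSS holds 52% of the large-subunit genes and 21.1% of all occupied genes.

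In the conservative list the limit of 1000 bp fell in a wide gap. The members just inside it were RpL23 at 305 bp, RpL18 at 392 bp and RpL35 at 529 bp, all upstream, and those just outside were RpL12 at 2604 bp upstream, RpL6 at 3494 bp downstream and RpL13A at 3728 bp upstream. No member lay between 529 and 2604 bp in that list. In the longer list RpL6 was counted through a summit 965 bp downstream, close to the limit.

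Many of these peaks sat between closely spaced genes. Another protein-coding TSS lay within 1000 bp of the summit at 20 of 25 occupied members (80%), beside 60.8% of all occupied genes. At 7 of the 25 (28%) the other TSS was the nearer one, beside 30.3% of all occupied genes. Among them were RpL13, RpL18, RpL23, RpL32, RpL35 and RpL41. The summit of RpL32 lay 176 bp from its own start and 133 bp from that of CG7943, that of RpL35 lay 529 bp from its own and 60 bp from that of Rab18, and that of RpL18 lay 392 bp from its own and 74 bp from that of Neos. RpL13 shared its peak with Dref, the gene for the factor that binds the DNA replication-related element (DRE), and the summit lay 132 bp from the Dref start and 216 bp from the RpL13 start. At these sites the peak cannot be assigned to one gene of the pair. RpL14 lies next to Nelf-E, a subunit of a factor that pauses RNA polymerase, and RpL28 next to the translation initiation factor gene eIF1, but in both cases the ribosomal gene had the nearer start (46 and 81 bp at RpL14, 80 and 301 bp at RpL28).

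The unoccupied genes were then looked up in the ranked lists, which hold 101511 to 120515 peaks before thresholding and so cover most genes. A ranked summit within 1000 bp in both replicates was present at 41 of 50 members (82%), beside 75.2% of all genes, and in the first ranked list of the series at 42 (84%), beside 81.5%. These shares were near the background. The rank of the peaks was higher with the occupied members included. The median percentile in that list was 97.0 for the 42 members and 85.2 for the 11371 genes with such a peak. This difference includes the occupied genes, which were 25 of the 42 members. Of the 11371 genes, 8431 were not occupied. The 17 members with a ranked peak that were not occupied ranged from percentile 43.9 at RpL10Aa to 97.1 at RpL13A. RpL40 stood in the middle of them at 82.2. That is below the 85.2 of all genes with such a peak, which include occupied ones. Of the 25 unoccupied genes 18 had a ranked summit in at least 1 list, beside 9444 of the 11005 unoccupied protein-coding genes.

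The strongest of these was at RpL13A, with a signal of 103 at 53 bp upstream (66.2 in replicate 1 and 32.4 in replicate 2, each within 100 bp of that summit, as for the values that follow). That exceeds the signals of RpL18, RpL7A, RpL19, RpL36 and RpL13 in the conservative list. Its score of 1000, which the authors derived from the irreproducible discovery rate (IDR), was also above the lowest score in the conservative list, 830, yet no thresholded list held the peak. Next came RpL11 with 95.8 (64.1 and 28.1), RpL37-1 with 83.8 (58.7 and 26.3), RpL6 with 74.3 (24.3 and 47.6), RpL4 with 66.8 (41.3 and 25.2) and RpL24 with 54.0 (44.4 and 12.8). Replicate 1 was the higher at each of these except RpL6, whose summit lay 965 bp downstream of its TSS. RpL27 had a peak only in replicate 1, with a signal of 71.1, and 95.3 in the longer list, at 72 bp upstream. The nearest ranked summit of replicate 2 was 4290 bp away. The copies RpL37-1 and RpL37-2 stood at 83.8 and 33.3. The other ranked peaks, at RpL3, RpL10Aa, RpL12, RpL29, RpL35A, RpL36A, RpL37-2, RpL39, RpL40, RpLP1 and RpLP2, had signals from 19.9 to 48.3.

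RpL5, RpL9, RpL10, RpL15, RpL21, RpL37A and RpL38 had no summit within 1000 bp in any of the 4 ranked lists. They make up 14% of the members, beside 11.2% of all genes. Their nearest summit in the first ranked list was between 4003 bp away, at RpL9, and 25210 bp, at RpL5. These genes differed from the other members in their surroundings. Repeat-masked bases made up a median of 23.8% within 5 kb of the TSS, with a range of 9.45% at RpL9 to 30.8% at RpL21, beside 9.80% for the 43 members with a ranked summit. The median over all protein-coding genes was 11.96%, and over all genes without a ranked summit 16.9%. The number of ranked summits within 50 kb had a median of 16, from 9 at RpL15 to 88 at RpL37A, beside 123 for the other 43 members. The same count was 105 for all genes and 54 for all genes without a ranked summit.

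RpL15, RpL5 and RpL21 were also the members closest to the centromeric end of their arm, at 0.843, 0.977 and 1.27 Mb. RpL10 at 5.01 Mb and RpL38 at 4.52 Mb were next but for RpL30 at 4.50 Mb, which was occupied. RpL9 and RpL37A lay far out on 2L, at 12.5 and 18.4 Mb. RpL7 was occupied with only 16 ranked summits within 50 kb. The sources used here do not state how reads matching several places were handled, and the part of repeats in the missing peaks was not tested.

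**Figure D3:**
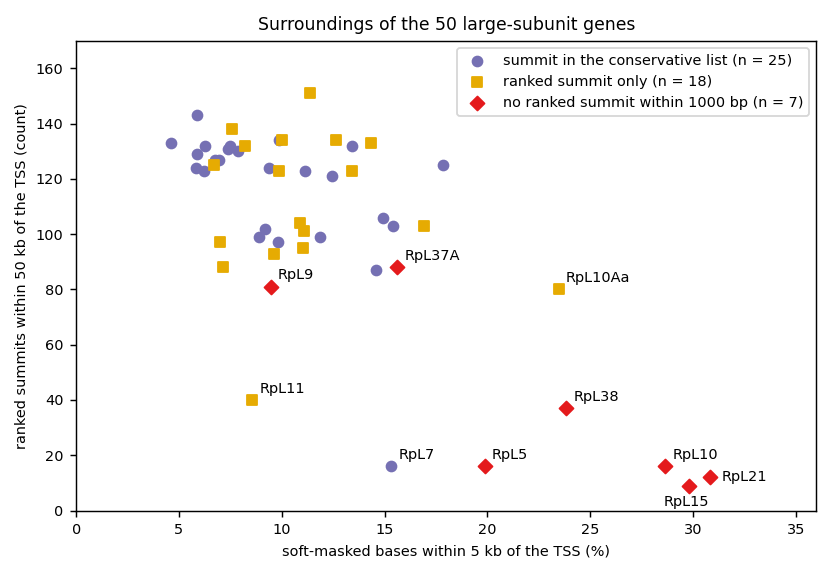
Repeat-masked (soft-masked) bases within 5 kb of the TSS, in percent, against the number of summits of the first ranked list within 50 kb, for the 50 large-subunit genes. Of the 7 genes with no ranked summit within 1000 bp, RpL5, RpL10, RpL15, RpL21 and RpL38 have at most 37 ranked summits nearby and RpL9 and RpL37A have 81 and 88; the occupied RpL7 has 16.

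Sequence motifs were counted on both strands within 100 bp of the 25 summits. The same was done for the 2386 conservative summits within 1000 bp of any protein-coding TSS and for the promoters of all 13945 genes, centred on the TSS. The DRE, TATCGATA, which is bound by Dref, was found at 7 of 25 members' summits (28%), beside 4.69% of all such summits and 7.39% of promoters. Among them were RpL19, RpL26, RpL28, RpL34a, RpL36 and RpL41. CGATA, the core of the site of the insulator protein BEAF-32, which lies inside every DRE, was found at 17 (68%), beside 32.7% and 38.4%. The core of Motif 1, GGTCACAC, which M1BP binds, was found at 5 (20%), beside 2.81% and 3.74%, and these were RpL7, RpL18, RpL27A, RpL30 and RpLP0. No gene had both the DRE and Motif 1. The centres of the DREs at RpL36, RpL28, RpL41, RpL19 and RpL34a lay 7, 8, 18, 26 and 35 bp from the summit, and that at RpL26 lay 87 bp away. The summits of RpL28, RpL34a and RpL36 are shown to display the DRE beside the peak, with the DRE in capitals on the strand of the gene.
RpL28 (chr3L:3223000-3223080, minus strand): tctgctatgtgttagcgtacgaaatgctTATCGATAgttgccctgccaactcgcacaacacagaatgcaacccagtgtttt
RpL34a (chr3R:26059301-26059381, minus strand): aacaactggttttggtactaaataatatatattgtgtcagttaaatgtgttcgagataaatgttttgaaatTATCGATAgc
RpL36 (chrX:629459-629520, minus strand): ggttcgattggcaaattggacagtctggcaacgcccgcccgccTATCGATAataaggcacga

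TATAAA was found at 2 of 25 (8%), RpL26 and RpL34b, beside 34.3% of all summits near genes and 37.0% of promoters. TCAGT was found at 4 (16%), beside 33.1% and 33.6%. That gap was absent in other windows, with 16% beside 15.8% and 16.4% within 50 bp, and 64% beside 60.9% and 65.7% within 250 bp. GAGAG, bound by the GAGA factor, was found at 1 (4%), RpL13, beside 21.2% and 22.2%. The E-box CACGTG, bound by Myc with Max, was found at 1 summit, RpL7, as shown above, beside 2.43% and 2.23%. CAGGTAG, the site of the early activator Zelda, was found at none, beside 0.629% and 1.15%. The bZIP sites TGANTCA, TGACGTCA, TTGCGCAA and TTACGTAA were found at none of the 25 either. Over all summits near genes they stood at 4.23%, 0.293%, 0.0838% and 0.335%, and over promoters at 4.07%, 0.301%, 0.208% and 0.258%. Each of the bZIP sites was thus rare in every set of windows.

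The promoters of the 25 unoccupied members, centred on the TSS, held the DRE in 3 (12%), CGATA in 15 (60%), Motif 1 in 3, TATAAA in 10 (40%), TCAGT in 9, GAGAG in 3 and the E-box in 3. Windows at summits and at starts are not at the same place in a promoter, so the counts of occupied and unoccupied genes stand side by side only.

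**Figure D4:**
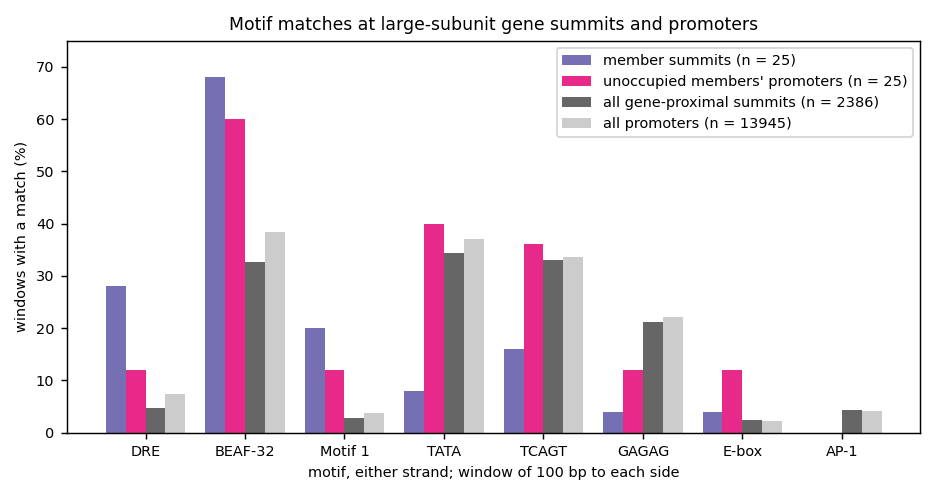
Percent of windows of 100 bp to either side that hold each motif on either strand, for the 25 large-subunit summits, the promoters of the 25 unoccupied members, all 2386 conservative summits near genes and all 13945 promoters (AP-1 is TGANTCA). The DRE stands at 28% of the large-subunit summits and at 4.69% of all such summits, and TATAAA at 8% and 34.3%.

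The TCT initiator was looked up at the TSSs of all members, as CTTT on the strand of the gene. With its C within 3 bp of an annotated TSS it was found at 17 of 50 (34%), beside 4.74% of all genes. Within 10 bp, a distance chosen after the data were seen, it was found at 45 of 50 (90%), beside 14.9% of all genes. The wider distance gave 22 of the 25 occupied and 23 of the 25 unoccupied members, and all 7 members without a ranked summit. The narrower one gave 12 and 5. Any annotated TSS could count, and more than 1 was annotated at 24 members (16 occupied and 8 unoccupied), beside 3699 of 13945 genes. The starts of RpL32, RpL34b and RpL23A, with the strongest peaks, and of RpL21 and RpL5, without a ranked one, are shown with 15 bp to either side of the TSS. For RpL34b and RpL21 the start shown is an annotated TSS that carries CTTT, not the outermost of the gene. The summit distance of RpL34b was measured from another TSS. The first CTTT with its C within 3 bp of the TSS is in capitals. RpL32 has another, with its C 3 bp past the TSS, in lower case. RpL5 has none at the start shown.
RpL32 start (chr3R:30046146-30046176, minus strand): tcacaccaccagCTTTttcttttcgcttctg
RpL34b start (chr3R:9401187-9401217, minus strand): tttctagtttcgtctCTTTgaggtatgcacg
RpL23A start (chr3L:1668639-1668669, minus strand): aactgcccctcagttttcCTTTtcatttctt
RpL21 start (chr2L:22247818-22247848, minus strand): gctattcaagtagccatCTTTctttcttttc
RpL5 start (chr2L:22536869-22536899, minus strand): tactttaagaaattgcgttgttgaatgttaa

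The DNA under the summits was richer in G and C than at most sites. Within 40 bp of the summit the 25 members had a median GC content of 44.4% (interquartile range 40.7% to 51.9%), and all 2386 summits near genes had 33.3% (27.2% to 42.0%). The small-subunit summits had 50.6%. Around the TSS the promoters of the unoccupied members had 30.9%, those of all 50 members 32.1%, and all promoters 37.0%. Windows at summits and at starts are not at the same place, so these values stand side by side only. Among the members the content ran from 19.8% at RpL23 to 63.0% at RpL7. Within 100 bp of the summit the medians came closer, 40.8% for the members and 35.8% for all summits near genes. This measure was added after the sequences were seen, and GC content can alter recovery in library preparation, whose part in the peaks was not tested.

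The paralogs named "-like" and genes known to act with the large-subunit genes were looked up in the same way. Of the 4 paralogs only RpLP0-like was occupied, with a signal of 131 at 58 bp upstream. RpL22-like, RpL24-like and RpL7-like had ranked peaks of 30.5, 56.1 and 23.6. Of 8 regulators 5 were occupied. The occupied share over all protein-coding genes was 21.1%, and the lists of 4, 8 and 9 genes in this paragraph are small. Irbp18 and Xrp1, whose proteins form a heterodimer in the response to Minute mutations, had signals of 285 and 84.6, with summits 178 and 305 bp upstream. M1BP, the Motif 1 binding factor, had 216, Max, the partner of Myc, had 105, and Dref had 73.5 from the peak shared with RpL13. Myc, Mnt and Trf2 were not occupied. Of 9 genes for assembly and export of the large subunit 4 were occupied, namely eIF6, which keeps new large subunits apart from small ones, with 1346, Ns2 with 647, Nle with 86.0 and Ns1 with 83.0. The peak at eIF6 (105 bp upstream of a TSS; 713 in replicate 1 and 641 in replicate 2) was stronger than that of any of the 50 members. Of the small-subunit genes RpS27, RpS20, RpS21 and RpS28b had the strongest peaks, with signals of 533, 424, 368 and 318.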

How the data were processed

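The deposited files are narrowPeak lists on dm6, per the labels. The signal of each peak is the value of the authors' peak caller, deposited without a stated normalization, and the score is a whole number the authors derived from the irreproducible discovery rate. The sources used here do not name the aligner or peak caller, nor say how duplicates and repeated matches were handled. Peak numbers were 5202 in the conservative list, 5643 in the longer list, 4751 and 3485 in the lists of replicates 1 and 2, and 101511 to 120515 in the ranked lists. Signals were compared within a list or by rank, but those of the replicates were also set side by side. Signals from the first ranked list were also set beside those of the conservative list, which are the same values at occupied members. Depth is unknown, and the labels' possible control was not analysed here.

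Summits were written 1-based and set against every TSS of Ensembl release 115 (BDGP 6.54), whose arms agree in name and length with the reference sequence from RefSeq's copy of the same assembly, which gave all sequences and the soft-masked repeats. Distances are negative upstream. Replicate peaks were matched within 100 bp. Calculations used Python 3.11.15, numpy 2.4.6, pandas 2.3.3 and matplotlib 3.10.9, and the distance step was tested on simulated data.

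The members, gene lists and motifs were chosen with earlier results of these data known, so the counts are descriptions beside the share over all genes. Named were the occupied members, except 1 that is counted but not reported here, the 3 nearest on each side of the limit, the 6 strongest and the absent among the unoccupied, RpLP0 to RpLP2, the paralogs and the 4 strongest genes of each other list. Members outside this rule, and Dref in the regulator list, were named to complete a group after their values were seen. Sequences on 2R are not shown. Alternatives were other lists, distances, TSS choices, symbols and motif windows.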

Additional observations from a re-analysis of the deposited data

How the results depend on the processing

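Of 57 alternative values for 18 results, 45 stayed within 1.5 times the count or within the spread of the replicates, 12 moved and none reversed. Those that stayed include CAGGTAG and the bZIP sites, at 0 in every window, and counts and percentiles have no sign to reverse. The occupied count was 13 with only peaks above the list's median signal and 16 to 28 when a replicate was left out, the lower value being without replicate 1. It was 30 in the longer list, 24 and 25 within 500 and 2000 bp, 26 with the -like paralogs and 18 where the gene's own TSS had to be the nearest. The upstream count was 11 among the stronger peaks. Leaving out a replicate gave median distances of -82.5 to -73 bp and percentiles of 43.1 (without replicate 2) to 53.3. Motif counts depended on the window: TATAAA fell to 1 within 50 bp and rose to 8 within 250 bp, CGATA was at 11 within 50 bp, and within 250 bp the E-box was at 5, GAGAG at 8 and TCAGT at 16 (64%, beside 60.9% of all summits near genes). The CTTT count was 45 within 10 bp. The cause of these moves was not tested, beyond the change in list or window itself. No paired analysis was possible because the 2 replicates form 1 group. With no reads, control or second strain, the depth behind an absent peak and the background of the antibody are unknown, and replicate 2 had fewer thresholded peaks than replicate 1.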

Other observations

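The word GCAAC, or GTTGC on the other strand, was noticed in the printed sequences and then counted, so its counts describe the windows it was found in. It lay within 100 bp of the summit at 16 of 25 large-subunit genes (64%) and at 14 of 20 small-subunit genes (70%), beside 35.3% of all 2386 conservative summits near genes and 33.5% of all promoters. Windows of the same size centred 500 bp to either side of the large-subunit summits held it in 21 of 50 (42%), and the promoters of unoccupied large-subunit genes in 8 of 25 (32%). More than 1 copy was present at 7 of the 25 summits (28%), beside 7.42% of all summits near genes. Within 40 bp the shares were 32% at large-subunit summits, 40% at small-subunit summits and 14.4% at all summits near genes. The word was chosen for its presence at these sites and was not tested.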
